A study of Rattus norvegicus with 3 samples.

Results

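Annexins are proteins that bind acidic membrane lipids when calcium rises. Each has a conserved core of repeated domains, which holds the calcium sites, and a variable head that binds partners such as S100 proteins. In the brain, annexin A1 and annexin A2 are best known from microglia, astrocytes and vessels, while annexin A6 is also known from neurons. The annexin genes examined here were Anxa1 to Anxa8, and they were followed in single somata, the cell bodies of neurons.

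The members were all probe sets of the array whose only gene symbol in the platform annotation was one of these 8 genes. This gave 14 probe sets of 31042 that were not controls of the manufacturer, and every member gene had at least 1. Anxa3 had 4 probe sets, Anxa2, Anxa4 and Anxa7 had 2 each, and the remaining genes had 1. The family was chosen by its measured values, namely the high intensity of Anxa1 on these same arrays, so its levels are given as a description and no test was run on them.

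All 3 samples belonged to a single group. Each was 1 soma of a neuron labelled as pyramidal, aspirated into a glass pipette from dispersed Sprague-Dawley rat hippocampal cultures started at embryonic day 19 and kept for 14 days without treatment. Its RNA was amplified and hybridised to 1 Affymetrix Rat 230 2.0 array. The somata are called cells 1, 2 and 3 by the replicate number in their titles. Nothing in the labels says whether they shared a dish or an animal, so any spread between them may be biological or technical.

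The arrays had median log2 intensities of 7.23, 7.16 and 7.09 in cells 1, 2 and 3, and there were 2889, 2866 and 2090 distinct values on them. A background was set on each array by 138 probe sets of 124 genes of other organs and of smell and taste receptors. Background was their 95th percentile, which was 9.66, 10.07 and 9.48 log2 in cells 1, 2 and 3. Cell 1 stood apart from the other arrays. Over all probe sets Pearson's r was 0.475 with cell 2 and 0.438 with cell 3, whereas cells 2 and 3 gave 0.691. The excess of the 3′ over the 5′ control probe set of Gapdh was 0.20 log2 in cell 1 but 3.06 and 2.93 log2 in cells 2 and 3. For hexokinase it was -2.40, 1.79 and -0.18 log2, lowest in cell 1 too but unlike between cells 2 and 3. By rank, general neuronal markers as a list went with the neuronal label, their 18 probe sets having median percentiles of 81.0, 82.8 and 91.4. Fewer passed background, namely 4, 4 and 12 of the 18 in cells 1, 2 and 3. The shares of all probe sets were 9.23%, 7.37% and 11.9%. In every cell 4 of the 18 passed, against 2.75% of all probe sets. Not all of the list was high. The probe sets of Map2 had mean percentiles of 38.9 and 43.1. Probe sets of the same gene also disagreed, with mean percentiles of 99.3 and 38.3 for Gap43, 89.9 and 47.4 for Nefl and 85.3 and 53.4 for Tubb3. Pyramidal markers were mixed, their 12 probe sets having medians of 48.0, 49.1 and 56.3. Of these, 3 were above background in every cell, namely the probe set of Neurod2, a transcription factor of excitatory neurons, at 12.88, 13.40 and 13.35 log2, that of Nrgn at 10.10, 11.77 and 11.58 log2 and 1 of Camk2b at 10.89, 11.78 and 12.35 log2. The kinase gene Camk2a was low, with mean percentiles of 2.71, 31.5, 35.1 and 43.8 over its 4 probe sets. Of the markers of other cell types, Vwf, the endothelial gene of von Willebrand factor, was the only one in the top 5% of every cell, at percentiles of 99.7, 99.7 and 99.6.

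Anxa1 was the bright annexin. It encodes annexin A1, which glucocorticoids induce in many cells and which is secreted to damp inflammation through formyl peptide receptors. Its probe set 1367614_at read 13.34, 12.84 and 13.01 log2 in cells 1, 2 and 3, a mean of 13.06 ± 0.25 (SD, n = 3 cells). All 3 readings lay far above background, by 3.67, 2.76 and 3.53 log2. Only 43 probe sets in cell 1, 72 in cell 2 and 82 in cell 3 were brighter, which placed Anxa1 at percentiles of 99.9, 99.8 and 99.7. A percentile here is the place of a probe set among all 31042 on its array. Probe affinity enters it along with the amount of RNA, so the order of the probe sets given below is not an order of transcript amounts.

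Among the 14 annexin probe sets, Anxa1 was the only one in the top 5% of every cell, against 1.58% of all probe sets. It was also the only one above background in every cell, against 2.75% of all probe sets and 2 of the 138 silent probe sets (1.45%). The silent probe sets also set background, so some of them pass on each array by construction. Of the 138, 1 (0.725%) was in the top 5% of every cell too. By cell, 1, 2 and 2 annexin probe sets were above background in cells 1, 2 and 3, against 9.23%, 7.37% and 11.9% of all probe sets. Apart from Anxa1 these were Anxa8 in cells 2 and 3. The readings of the family ran from 4.93 to 13.34 log2, as the plot of log2 intensities shows.

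**Figure D1:**
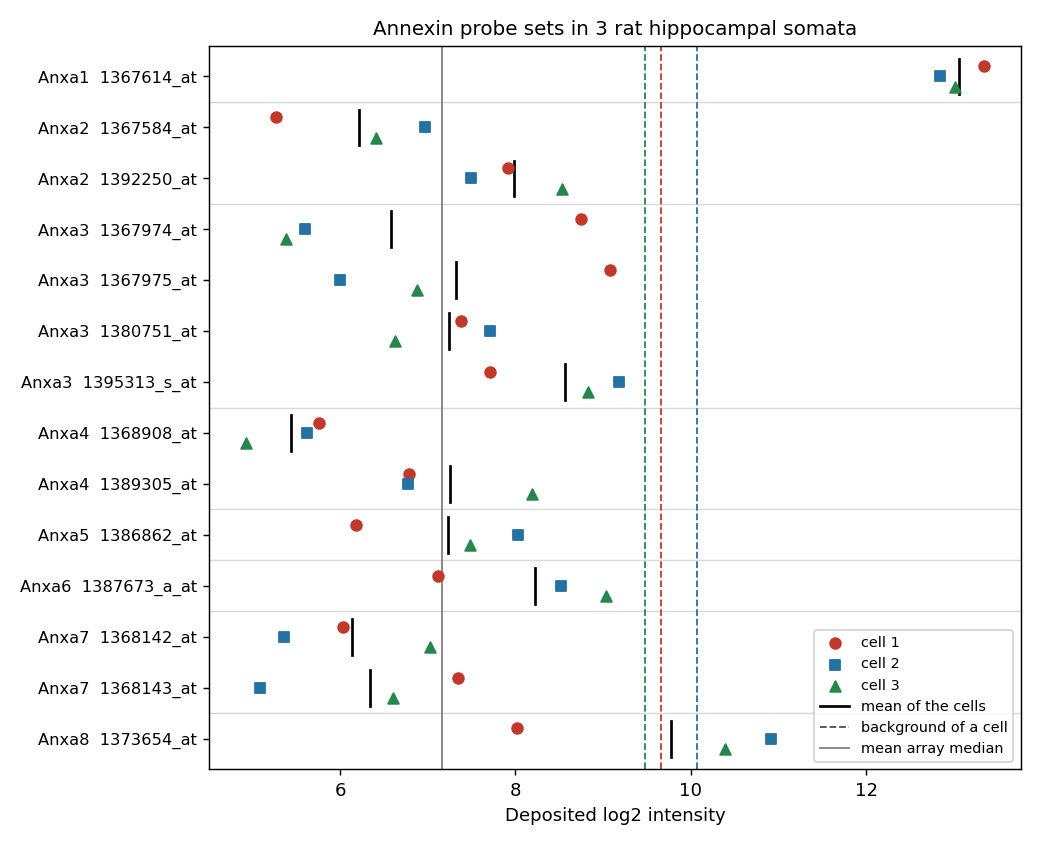
Deposited log2 intensity (horizontal axis) of the 14 annexin probe sets (rows) with a circle for cell 1, a square for cell 2, a triangle for cell 3 and a black bar for their mean; dashed lines in the colours of the cells give background, and the grey line is the mean array median. Anxa1 lies at 12.84 to 13.34 in all 3 cells, Anxa8 passes background in cells 2 and 3, and all other probe sets stay left of it.

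For 4 members the 250 bases before the RefSeq start of the gene are shown (build GRCr8, 5′ to 3′ on the strand of the gene). These are Anxa1, which read high in every cell, Anxa8, which came next, Anxa3, whose probe sets differed most between cells, and Anxa2, which shares with Anxa1 the one motif marked. Capitals mark TATAAA, the core of a TATA box, searched on both strands:
Anxa1 (chr1:227303733-227303982, - strand): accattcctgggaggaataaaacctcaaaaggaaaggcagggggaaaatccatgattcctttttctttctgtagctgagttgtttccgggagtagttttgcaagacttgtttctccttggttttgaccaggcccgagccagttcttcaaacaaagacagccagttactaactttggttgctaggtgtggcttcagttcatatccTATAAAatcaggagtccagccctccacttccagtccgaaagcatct
Anxa8 (chr16:9403137-9403386, + strand): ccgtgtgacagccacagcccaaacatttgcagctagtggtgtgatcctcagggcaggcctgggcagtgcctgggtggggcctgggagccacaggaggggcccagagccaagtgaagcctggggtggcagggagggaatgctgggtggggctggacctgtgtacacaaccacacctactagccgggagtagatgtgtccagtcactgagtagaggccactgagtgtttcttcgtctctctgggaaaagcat
Anxa3 (chr14:13085598-13085847, - strand): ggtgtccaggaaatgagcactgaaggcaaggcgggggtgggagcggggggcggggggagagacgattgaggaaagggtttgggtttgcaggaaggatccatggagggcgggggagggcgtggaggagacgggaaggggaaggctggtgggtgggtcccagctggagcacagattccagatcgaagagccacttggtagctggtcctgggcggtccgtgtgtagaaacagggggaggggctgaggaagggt
Anxa2 (chr8:78986002-78986251, + strand): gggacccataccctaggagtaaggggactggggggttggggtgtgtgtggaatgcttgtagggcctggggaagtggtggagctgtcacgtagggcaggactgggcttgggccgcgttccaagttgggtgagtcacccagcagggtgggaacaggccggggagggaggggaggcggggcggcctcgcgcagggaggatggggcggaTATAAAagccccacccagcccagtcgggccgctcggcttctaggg

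TATAAA began at position -46 in Anxa1 and at -45 in Anxa2, counted from the base just before the start as -1, and was found in none of the other 5 annexin promoters, while 12.9% of 33469 rat promoters of this length hold it. The 7 promoters matched were those of Anxa1 to Anxa5, Anxa7 and Anxa8, and Anxa6 was not matched. The Anxa1 window had a GC content of 45.2% with 3 CpG dinucleotides, the Anxa2 window 67.2% with 12, the Anxa3 window 64.0% with 10 and the Anxa8 window 60.4% with 3. Over all promoters the medians were 51.2% and 5.00. GGGCGG, the GC box, was found in Anxa2, Anxa3, Anxa4 and Anxa5 but not in Anxa1, Anxa7 or Anxa8, and it is held by 30.5% of all promoters. CCAAT was found in Anxa4 and Anxa7, against 34.0% of all promoters, and TGANTCA, the letters of an AP-1 element, in Anxa2 alone, against 6.34%. All were searched on both strands, and no match overlapped another.

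Anxa8, which encodes an annexin first described as an anticoagulant of blood vessels, was second. Probe set 1373654_at read 8.02, 10.91 and 10.39 log2 in cells 1, 2 and 3. Cells 2 and 3 were 0.84 and 0.91 log2 above background, whereas cell 1 was below it. Its percentiles were 68.7, 96.8 and 93.5, a range that overlapped with those of the next members. Within each cell it lay above the member next in mean percentile, Anxa3 1395313_s_at, at 61.9, 86.1 and 82.3. In cell 1, however, Anxa3 1367974_at at 81.4 and 1367975_at at 85.6 were higher than Anxa8. The place of Anxa8 as second thus holds for its mean of 86.3 ± 15.4 (SD, n = 3 cells) but not in cell 1.

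Anxa2 encodes annexin A2, which pairs with S100A10 and gathers plasminogen and its activator at the cell surface. Its 2 probe sets gave different accounts. Probe set 1367584_at read low, at 5.27, 6.97 and 6.41 log2, with a mean percentile of 29.9 ± 18.6. Probe set 1392250_at read 7.91, 7.49 and 8.53 log2, with a mean percentile of 67.7 ± 10.1. The dimmer of the pair was lowest in cell 1 and the brighter one was highest in cell 3.

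Annexin A5, the product of Anxa5, binds phosphatidylserine so tightly that it is the usual probe for dying cells. Probe set 1386862_at read 6.18, 8.03 and 7.48 log2, below background in all 3 cells. Anxa6, whose product has a doubled core and links membranes to the cytoskeleton, read 7.12, 8.52 and 9.03 log2 with probe set 1387673_a_at, again below background throughout. Both genes had their lowest reading in cell 1, where Anxa5 stood at a percentile of 25.1 and Anxa6 at 47.3.

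By the median of their probe sets, Anxa4 and Anxa7 were the dimmest members. Annexin A4 lines membranes of secretory epithelia, and its probe set 1368908_at read 5.76, 5.62 and 4.93 log2, the lowest mean percentile of the family at 14.2 ± 5.28. The other Anxa4 probe set, 1389305_at, read 6.79, 6.77 and 8.19 log2. Annexin A7, or synexin, joins secretory granules to the plasma membrane when calcium rises, and its probe set 1368142_at read 6.03, 5.36 and 7.03 log2. The second Anxa7 probe set, 1368143_at, read 7.35, 5.09 and 6.60 log2. Cell 2 gave the lowest reading of both Anxa7 probe sets.

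Ordered by mean percentile, the 14 probe sets formed 13 neighbouring pairs. The range of Anxa1 over the cells did not overlap that of its neighbour, Anxa8, whereas in the other 12 pairs the ranges overlapped. Compared within cells, Anxa1 and Anxa8 each lay above the next lower probe set in all 3, and no other member did. The family as a whole stood near the middle of the array. The median percentile of its probe sets was 53.5, 52.0 and 53.9 in cells 1, 2 and 3, a mean of 53.1 ± 0.992 (SD, n = 3 cells), where the middle of an array is the 50th percentile by construction. Of the 14, 3 were below the 50th percentile in every cell, against 25.0% of all probe sets.

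**Figure D2:**
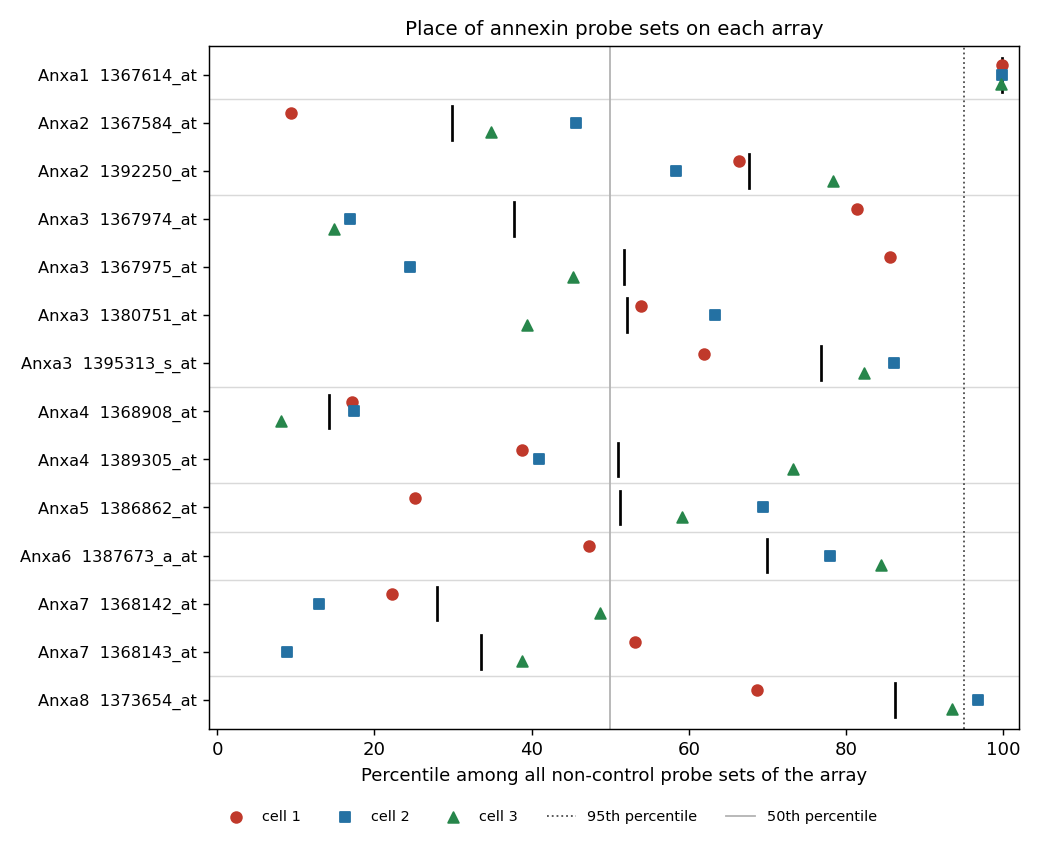
Percentile of the annexin probe sets (rows) among all non-control probe sets of each array (horizontal axis) with a circle for cell 1, a square for cell 2, a triangle for cell 3 and a black bar for their mean. Anxa1 lies at 99.7 or above in all cells, Anxa8 crosses the 95th percentile (dotted) in cell 2 alone, and the widest rows are those of Anxa3 1367974_at (14.9 to 81.4) and 1367975_at (24.5 to 85.6).

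Anxa3 showed the widest differences between cells. Its product was described in neutrophils, where it sits on secretory granules, and in rat brain it is known from microglia. Probe set 1367974_at read 8.75 log2 in cell 1, against 5.60 and 5.38 in cells 2 and 3. Probe set 1367975_at read 9.08 log2 in cell 1, against 6.00 and 6.88 in cells 2 and 3. Cell 1 was thus the high cell for both. After quantile normalisation, which gives all arrays the same distribution, cell 1 exceeded cells 2 and 3 by 3.14 and 3.26 log2 with 1367974_at and by 3.11 and 2.17 log2 with 1367975_at. None of these readings passed background, the nearest being that of 1367975_at in cell 1, at -0.58 log2 from it.

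The other probe sets of Anxa3 did not share this pattern. Probe set 1380751_at read 7.38, 7.71 and 6.63 log2 in cells 1, 2 and 3. Probe set 1395313_s_at ran the other way, at 7.71 log2 in cell 1 and 9.18 and 8.83 in cells 2 and 3. Its suffix marks probes that can match several transcripts. The 4 probe sets of this gene therefore do not give a single direction for cell 1.

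Markers of glia also differed between the arrays. Of the 16 microglial probe sets, 5 were above background in cell 1, 1 in cell 2 and 0 in cell 3. The shares of all probe sets were 9.23%, 7.37% and 11.9%. Their median percentiles were 57.5, 54.7 and 33.1, and the log2 of their summed intensity was 13.48, 12.68 and 11.21. The list did not run one way. Cell 1 was above both other cells by 1 log2 or more for 6 of the 16 and below both for 3. Over all probe sets 32.5% met the call in either direction. Tyrobp, an adaptor of microglial receptors, read 11.61, 5.43 and 4.68 log2. By percentile, the complement subunit gene C1qc lay at 98.6, 72.9 and 67.5 and the receptor gene Csf1r at 96.1, 54.7 and 75.1. Other defining markers were lower in cell 1 than in both other cells. The purine receptor gene P2ry12 lay at 51.8, 99.3 and 78.3 with one probe set and at 0.963, 55.9 and 4.58 with the other, the chemokine receptor gene Cx3cr1 at 21.5, 68.0 and 75.5, and Aif1, the gene of the microglial protein IBA1, at 0.105, 2.14 and 7.63 with one probe set and at 11.3, 80.1 and 65.3 with the other.

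Astrocyte and oligodendrocyte markers were likewise highest in cell 1 by their medians, but neither list ran one way. Cell 1 was above both other cells by 1 log2 or more for 7 of the 15 astrocyte probe sets and below both for 3. For the 10 oligodendrocyte probe sets the counts were 3 and 1. Over all probe sets 32.5% met this call in either direction. Of the 7 astrocyte probe sets that were higher in cell 1, that of S100b lay at percentiles of 98.5, 37.4 and 59.5. A probe set of Gja1 lay at 90.6, 51.8 and 29.7 and one of Aqp4 at 77.8, 12.9 and 7.15. Other astrocyte markers were lowest in cell 1. By percentile, Gfap lay at 19.1, 67.7 and 50.5, Aldh1l1 at 4.30, 35.2 and 15.6 and Aldoc at 33.5, 66.1 and 60.6. The 15 astrocyte probe sets had medians of 66.0, 46.7 and 50.5 and a log2 summed intensity of 12.99, 11.51 and 11.79. Of them 3, 0 and 1 were above background, against 9.23%, 7.37% and 11.9% of all probe sets. The same shares apply to the lists that follow. The 10 oligodendrocyte probe sets had medians of 64.1, 49.1 and 51.7, with 1, 0 and 0 above background and a log2 summed intensity of 12.11, 11.19 and 10.62. Markers of endothelium and fibroblasts had medians of 68.7, 64.5 and 33.6 over 11 probe sets, with 1, 2 and 2 above background and a log2 summed intensity of 12.90, 13.44 and 13.29. The part of such RNA in the Anxa3 readings, or of the 3′ to 5′ differences between the arrays, was not tested.

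Cell 1 differed from both other cells in the same direction by 1 log2 or more for 7 of the 14 annexin probe sets, against 32.5% of all probe sets. It was the low cell for Anxa8, with differences of -2.95 and -2.26 log2 from cells 2 and 3, and probe sets of Anxa2 (1367584_at), Anxa3 (1395313_s_at), Anxa5 and Anxa6. The difference from cells 2 and 3 was -1.98 and -1.49 log2 for Anxa5 and -1.47 and -1.97 log2 for Anxa6. Cell 1 was the high cell only for Anxa3, with the pair of probe sets described above. With 14 probe sets of 8 genes the count is small, and probe sets of the same gene are not independent.

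Differences of this size were common on these arrays. The highest and lowest cell were 1 log2 or more apart for 12 of the 14 annexin probe sets, against 74.7% of all probe sets. The exceptions were Anxa1, with a range of 0.53 log2, and Anxa4 1368908_at, with 0.60. A pair of cells cannot be this far apart more often than all 3. Cells 2 and 3 were this far apart for 5 of the 14, against 39.9% of all probe sets. The count was 9 between cells 1 and 3, against 54.0%, and 8 between cells 1 and 2, against 50.7%. The median absolute difference between cells 2 and 3 was 0.64 log2 for the annexins and 0.79 over all probe sets, while between cells 1 and 2 it was 1.49 and 1.02. The narrow range of Anxa1 was usual among the 491 probe sets in the top 5% of every cell. Their median range was 0.55 log2, and 47.9% of them had a range no larger than that of Anxa1. Being high in every cell itself limits the range, and these probe sets were not matched to Anxa1 for brightness.

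**Figure D3:**
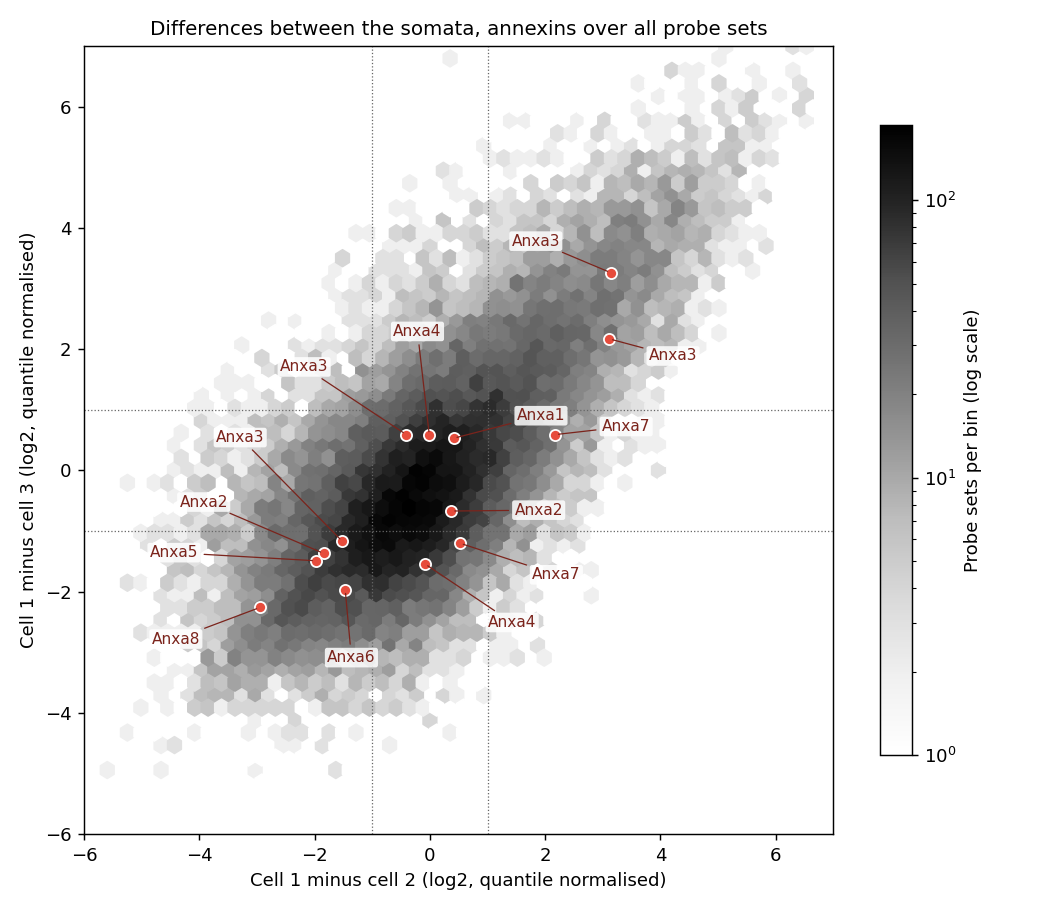
Difference of cell 1 from cell 2 (horizontal axis) and from cell 3 (vertical axis) in quantile-normalised log2 intensity, with annexin probe sets as labelled points and all 31042 probe sets as grey bins (log colour scale). Both axes contain cell 1, which stretches the cloud along the diagonal; 2 points of Anxa3 lie above 2 on both axes, Anxa8 lies lowest at the left, and dotted lines mark differences of 1 log2.

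Where a gene had several probe sets, their means could be compared. The highest and lowest mean were 1.76 log2 apart for Anxa2 and 1.79 for Anxa4, against a median of 1.22 over 3061 genes with 2 probe sets. The probe sets of Anxa7 were 0.23 log2 apart. Those of Anxa3 were 1.93 log2 apart, against a median of 2.73 over 290 genes with 4. In these 4 genes the probe set annotated with a RefSeq mRNA record had a lower mean percentile than the median of the others, which are annotated with other sequence records. Over all 877 genes with both kinds this held for 54.6%. The observation was made after the values were seen. Collapsing each gene to its median probe set left Anxa1 at a mean percentile of 99.9 and Anxa8 at 87.6 among 14217 genes, followed by Anxa6 at 70.4, Anxa3 at 51.1, Anxa5 at 49.6, Anxa2 at 46.0, Anxa7 at 26.8 and Anxa4 at 26.7.

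Of the remaining annexins of the rat, Anxa9 and Anxa11 were measured, and Anxa10 and Anxa13 were not analysed here. Annexin A9 lacks working calcium sites. Its probe set 1395466_at read 7.05, 9.57 and 9.96 log2 in cells 1, 2 and 3, lowest in cell 1 as Anxa8 was. Its probe set 1381223_at read 7.67, 10.36 and 7.69 log2 and was high in cell 2 alone. Annexin A11, which tethers RNA granules to lysosomes in axons, read 7.22, 6.97 and 8.69 log2 with 1388445_at, below background in all cells. None of these 3 probe sets reached the top 5% of any cell.

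The S100 proteins are small calcium sensors that dock on annexin heads. Their 13 probe sets had a median percentile of 63.9, 37.4 and 49.6 in cells 1, 2 and 3. None was above background in every cell, against 2.75% of all probe sets. S100a10, the partner of annexin A2, read 7.40, 6.09 and 10.84 log2, above background in cell 3 alone. S100a11, which binds annexin A1, read 10.03, 7.87 and 6.46 log2, above background in cell 1 alone. S100a6, which binds annexin A11 among others, read 5.30, 5.23 and 4.98 log2 and was low in every cell. None of these direct partners was above background in every cell. With so few probe sets this sets up no contrast with Anxa1, whose high intensity led to the choice of the family.

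Other lists around the annexins differed in their medians. Formyl peptide receptors, through which secreted annexin A1 acts, were not analysed here. A further list joined phospholipase A2, which annexin A1 was named for inhibiting, with eicosanoid enzymes. It had median percentiles of 46.2, 47.0 and 52.4 over 17 probe sets. In it Pla2g4a, the gene of a cytosolic phospholipase A2, read 5.61, 9.11 and 7.19 log2. The plasminogen system, which annexin A2 serves, had medians of 42.4, 40.3 and 28.7 over 12 probe sets. In it Plat, the tissue plasminogen activator, read 7.97, 4.95 and 4.79 log2, and plasminogen itself, Plg, read 6.72, 5.83 and 6.86 log2.

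Genes of phosphatidylserine exposure had medians of 48.0, 48.7 and 43.5 over 32 probe sets. Of the 32, 1 was above background in every cell, against 2.75% of all probe sets. It was 1 of the 3 probe sets of Gas6, which bridges exposed phosphatidylserine to phagocytes, at 10.61, 10.10 and 12.27 log2. In cell 2 it only just passed, background there being 10.07 log2. The other Gas6 probe sets had mean percentiles of 56.0 and 49.8. Membrane repair genes and calcium-binding partners had medians of 54.1, 58.8 and 57.1 over 28 probe sets. Sri encodes sorcin, a partner of annexin A7, and its probe set 1383094_at read 8.53, 8.70 and 10.31 log2, whereas 1372770_at read 7.94, 6.04 and 5.90 log2. Pdcd6 encodes ALG-2, a calcium sensor that binds annexins A7 and A11, and read 8.02, 9.25 and 10.56 log2. Copines, which bind lipids with calcium through another domain, had medians of 68.3, 60.2 and 55.7 over 11 probe sets. In none of these lists was a probe set in the top 5% of every cell, against 1.58% of all probe sets. Anxa1 held that place, but the family was chosen for its high intensity.

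**Figure D4:**
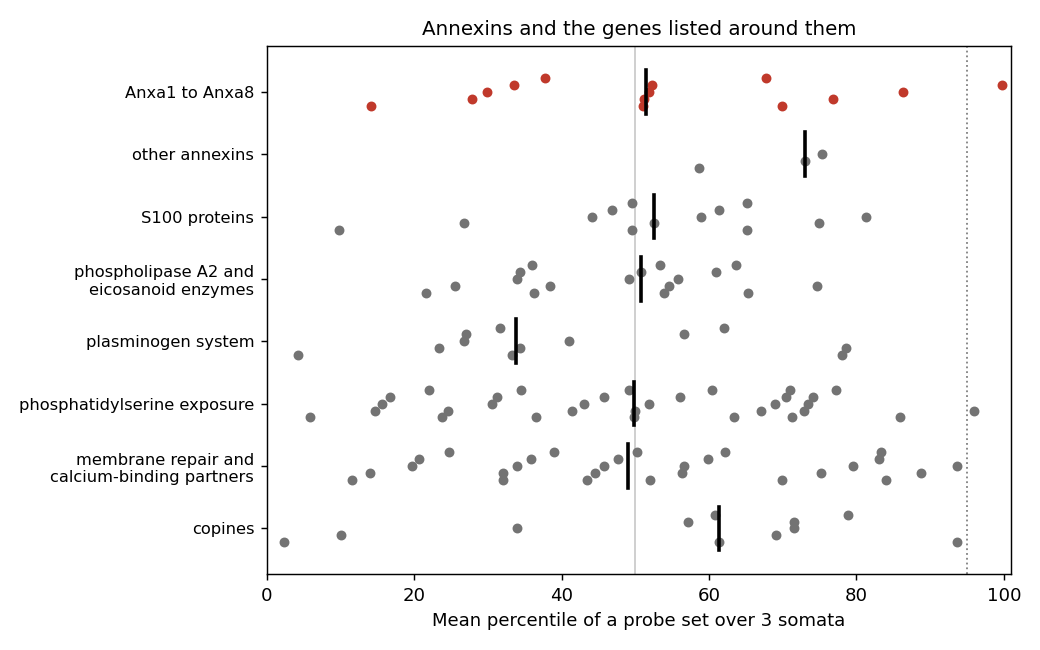
Mean percentile over the 3 somata (horizontal axis) of each probe set of Anxa1 to Anxa8 (red) and of the lists around them (grey), with the median of each list as a black bar. Anxa1 lies furthest right at 99.8 and Gas6 next at 96.0, and the median of the annexins lies at 51.5, against 49.7 for all probe sets.

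The probe sets whose readings lay nearest to those of Anxa1 over the 3 cells were found by the sum of absolute differences in quantile-normalised log2. They were those of Sipa1l3 (0.31), Esyt2 (0.33) and Tspan2 (0.36), which encode a GTPase-activating protein, an extended synaptotagmin and a tetraspanin. For Anxa3 1367974_at, the member with the widest range, they were Mapk9 (0.11), Ccdc126 (0.11) and Pdxkl1 (0.24). With 3 cells such likeness is weak, since 21 named probe sets lay within 1 log2 of Anxa1 and 139 within 1 log2 of this Anxa3 probe set.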

How the data were processed

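The series held 3 arrays, and each was 1 sample. Per the labels, RNA of 1 soma was amplified by antisense RNA methods and with the Ambion Illumina TotalPrep kit, and 5 µg of amplified RNA were taken for labelling with biotin. The authors deposited log2 values, 1 for each probe set, and the labels name RMA 2.0. The published methods, written for dendrites and tissues, name an upper-decile summary followed by median centring and scaling by the 10th to 90th percentile range. The deposited log2 values differ in median and in their sorted values by up to 0.500, so they were not scaled in that way. Precision is limited by there being 3 arrays.

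Control probe sets (57) were left out. Symbols came from the platform annotation, and all 14 annexin probe sets were found by gene number in RefSeq (GRCr8). Older list symbols were updated through RefSeq after values were seen. Percentiles were taken within arrays with ties at their mean rank. Deposited values of dim members were each shared by up to 230 probe sets of an array. Differences between cells were taken after quantile normalisation. Its code was checked on simulated arrays that were far more alike than these, so the check does not show how well it served here. Python 3.11.15, numpy 2.4.6, pandas 2.3.3, scipy 1.17.1 and matplotlib 3.10.9 were used. The members, the lists, the background and the alternatives were chosen with earlier results of these data known. The genes named were all annexins measured, direct annexin partners, members of the partner lists in the top 5% of every cell (there were none) and the 3 probe sets nearest to a member. Gas6 and the cell type markers named were chosen after their values were seen, and so was the comparison of sequence records. With 1 group no test was run, and the mean ± SD is the spread over 3 cells.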

Additional observations from a re-analysis of the deposited data

How the results depend on the processing

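Anxa1 stayed the only annexin in the top 5% of every cell under all alternatives tried, which were ranking among named probe sets, ranking genes, leaving out ambiguous probe sets, a top of 10% and leaving out each cell. It also stayed the only one above background with the 99th percentile of the silent genes. With their median as background 6 of the 14 annexin probe sets passed in every cell, against 36.7% of all probe sets, and leaving out 1 cell gave 1 to 2 (2 without cell 1, the added one being Anxa8). The median percentile of the annexins was 53.1. It was 52.1 when ranked among probe sets with 1 symbol, 48.0 without ambiguous probe sets, and 52.8 to 53.7 with 1 cell left out. The count of probe sets with a range of 1 log2 or more was 12 with values as deposited and with the scaling of the published methods, and 5 to 9 with 1 cell left out, the lowest without cell 1. At 2 log2 it was 4, against 37.5% of all probe sets. Mean percentiles of single probe sets moved by more than their SD in 5 of 70 cases, all from ranking genes. No paired analysis was possible because the series has 1 group. Readings below background, which are those of 6 of the 8 genes in every cell, lie within the range of the silent genes.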
